A study of Saccharomyces cerevisiae with 16 samples.

Results

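The genes of the vegetative cell wall of budding yeast were followed through the first 6 h of meiosis. The genes were taken from a list of cell wall genes and found on the arrays as the probes, other than control spots, whose systematic name carries that standard symbol in RefSeq; 38 of the 6256 genes on the array were members, and all 38 were found. They fall into 8 groups by role: 9 genes of β-1,3-glucan synthesis and remodelling, 3 genes of β-1,6-glucan, 5 genes of chitin and its crosslinks, 4 PIR proteins, 8 mannoproteins of the wall surface, 2 yapsins, 3 genes of mannosylation and 4 genes of daughter cell separation.

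The wall of a growing yeast cell is a meshwork of β-1,3-glucan, to which β-1,6-glucan, a little chitin and a coat of mannoproteins are attached, most of the coat through a remnant of a glycolipid anchor and the PIR proteins directly to the glucan. Glucan is made by a synthase in the plasma membrane, then lengthened, cut and crosslinked outside the cell, and the septum between mother and daughter is cut by enzymes that the daughter makes late in the cycle. A cell that enters meiosis stops budding and later builds a different wall around each spore, for which it has its own forms of several of these enzymes.

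Total RNA was measured in 2 strains at 0, 2, 4 and 6 h after transfer from acetate medium, in which the cells had been grown, to sporulation medium, on 16 single color arrays with 2 replicates in each of the 8 groups. The *ime2Δ* strain (YGB221) lacks both copies of *IME2*, which encodes a meiosis-specific protein kinase, with *TRP1* in their place (*ime2Δ::TRP1*/*ime2Δ::TRP1*). The wild type (WT) strain (DSY1089) carries *IME2*. Both are *MAT*a/α diploids of SK1 ancestry that share *ho::LYS2*, *lys2*, *ura3*, *leu2::hisG* and *trp1::hisG* on both homologs and are *arg4-BglII*/*arg4-NspI* and *his4B*/*his4X*. The comparison of the strains asks how expression in early meiosis depends on Ime2, with each genotype represented by 1 strain.

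Values below are log2 signal intensities over the median of the same array, so that 0 is the signal of the median gene of that array, and they allow comparison of 1 gene between arrays but not of different genes. Differences are fitted log2 values ± SE from limma over all 16 arrays, and a gene is called where the Benjamini-Hochberg adjusted p over 6254 genes is under 0.05. All 38 members were well above background on all 16 arrays, on which 6005 to 6181 genes were, and the 2 arrays of a group correlated at r = 0.988 to 0.994 across genes. No *ime2Δ* array had *IME2* well above background, and it read 2.48 to 5.43 on the WT arrays. Of 6 early meiotic genes, 5 to 6 were called higher than at 0 h at each later time in both strains. Compared with WT, 3 of these 6 were called lower in *ime2Δ* at 0 h, 3 at 2 h and 4 at 4 h. At 6 h 2 were lower and 1 higher. The median difference of the early genes was -1.13, -0.97, -1.08 and 0.06 at 0, 2, 4 and 6 h. Of 6 middle sporulation genes, 6 were called higher at 4 h and at 6 h in WT, with a median change at 6 h of 6.64, against 3 higher and 3 lower in *ime2Δ* and a median of -0.32. At 0 h, 4 of these middle genes were already lower in *ime2Δ* than in WT and 1, *CLB1*, was higher. Whether the starting differences of the early and middle genes play a part in the results below was not tested. On both slides the *ime2Δ* arrays lay in 1 column and the WT arrays in the other, so strain and slide column cannot be told apart. The arrays of 0, 2, 4 and 6 h lay in rows 1, 2, 3 and 4 of both slides, so time and slide row cannot be told apart either.

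Most of the wall genes fell in both strains within 2 h. In *ime2Δ*, 28 of the 38 were called lower and 1 higher at 2 h against 0 h, where 22.1% of all genes were called lower, 17.6% higher and 39.7% in either direction. By 4 h, 31 were lower and 1 higher in *ime2Δ* (26.9% of all genes lower, 23.4% higher, 50.3% in either direction). By 6 h, 32 were lower and 1 higher (30.1% lower, 24.5% higher, 54.7% in either direction). The median change of the 38 genes in *ime2Δ* after 2, 4 and 6 h was -1.04, -1.49 and -1.58, against medians over all genes of -0.06, -0.05 and -0.10. The gene called higher at each time was *PIR3*. RNA was taken from whole cultures, so a lower signal in every cell and a loss from some of the cells cannot be told apart.

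With each array scaled to its median, more members were called lower in WT than in *ime2Δ* at 2 h and fewer at 4 and 6 h. The order at 4 and 6 h did not hold under 75th percentile scaling, as given below. Some of the members came back in WT. After 2 h, 31 members were called lower and 1 higher in WT (27.2% of all genes lower, 22.2% higher, 49.4% in either direction). By 4 h, 29 were lower and 1 higher (31.8% lower, 30.7% higher, 62.5% in either direction). By 6 h, 27 were lower and 4 higher (35.7% lower, 35.3% higher, 71.0% in either direction). The median change in WT after 2, 4 and 6 h was -1.34, -1.46 and -1.72, against -0.10, -0.02 and -0.01 over all genes. The 4 genes that were higher in WT at 6 h were *CWP1*, *EXG2*, *KRE6* and *SVS1*, and each of them was called lower in *ime2Δ* at that time. The mean over the 2 arrays was highest at 0 h for 35 of the 38 genes in *ime2Δ* and for 27 in WT, as it was for 45.3% of all genes in *ime2Δ* and 36.2% in WT. In WT 8 genes had their highest mean at 6 h (*CCW12*, *CHS3*, *CWP1*, *EXG2*, *KRE1*, *KRE6*, *PSA1* and *SVS1*), and *GAS5* and *PIR3* did in *ime2Δ*. Across the 38 genes, the change in *ime2Δ* and the change in WT after 2, 4 and 6 h had a Pearson r of 0.43, 0.49 and 0.02, given as a description because the genes are not independent and arrays of the same replicate number share a slide. Scaling to the 75th percentile of each array in place of the median raised the median of all genes by 0.21 to 0.27 in the changes from 0 h, except WT at 6 h; the genes called lower then numbered 24, 25 and 27 in *ime2Δ* and 28, 28 and 28 in WT at 2, 4 and 6 h.

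**Figure D1:**
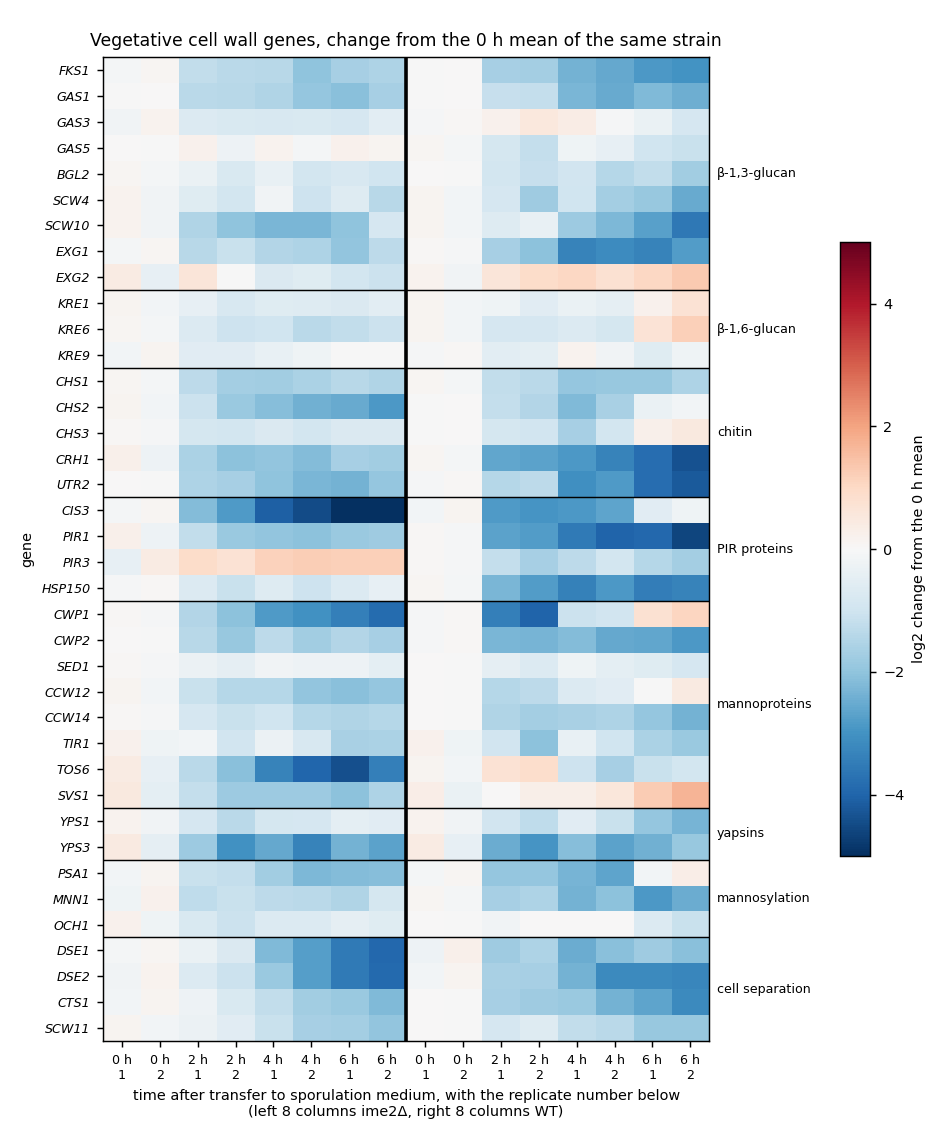
Change of each of the 38 genes (rows, by role) on each of the 16 arrays, as log2 difference from the 0 h mean of the same strain (color), with *ime2Δ* in the left 8 columns and WT in the right 8. Most rows turn blue by 2 h in both strains. *PIR3* turns red in *ime2Δ*, while *CWP1*, *KRE6*, *SVS1* and *EXG2* are red at 6 h in WT.

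Between the strains, more members were called higher than lower in *ime2Δ* at each time, and by 6 h the members had parted in both directions. At 0 h 5 members were called higher and 0 lower in *ime2Δ* than in WT (1.41% of all genes higher, 3.26% lower, 4.67% in either direction). This count was 0 without replicate 1 of *ime2Δ* at 0 h, 2 without replicate 1 of WT and 3 without replicate 2 of WT. At 2 h 12 were higher and 1 lower (4.54% of all genes higher, 9.05% lower, 13.6% in either direction), and at 4 h 14 were higher and 6 lower (14.2% higher, 16.9% lower, 31.2% in either direction); without replicate 1 of *ime2Δ* at 4 h, 8 were higher and 4 lower. At 6 h 18 were higher and 12 lower, where 33.1% of all genes were higher, 31.1% lower and 64.2% called in either direction. Under 75th percentile scaling and under quantile normalization, 23 were higher and 10 lower, with the median of all genes raised by 0.28 and 0.19. The median difference over the 38 genes was 0.12 at 0 h and 0.45, 0.45 and 0.54 after 2, 4 and 6 h, against -0.01, 0.03, 0.01 and 0.10 over all genes. Without the 4 separation genes, the median at 0 h was 0.05, with 20 members above 0 and 14 below.

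The test of the difference between the strains in their change from 0 h takes out what the strains already differed in at 0 h. At 2 h it called 3 members higher (*CWP1*, *HSP150* and *PIR3*) and 1 lower (*TOS6*), where 0.863% of all genes were called higher, 2.46% lower and 3.33% in either direction; without replicate 1 of *ime2Δ* at 0 h, replicate 1 of WT at 0 h or replicate 2 of WT at 2 h, 2 members were called. At 4 h 4 were higher and 6 lower (6.2% of all genes higher, 9.37% lower, 15.6% in either direction). At 6 h 12 were higher and 12 lower (25.1% higher, 25.0% lower, 50.1% in either direction); scaled to the 75th percentile the split was 19 higher and 12 lower, and after quantile normalization 19 higher and 10 lower, with the median of all genes raised by 0.30 and 0.17. No member that was called changed direction under either scaling.

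The PIR proteins are bound to β-1,3-glucan and strengthen the wall. At 6 h 3 of their 4 genes were higher in *ime2Δ* than in WT and the other, *CIS3*, was lower. Among all genes 33.1% were higher and 31.1% lower at that time. For *PIR1* the *ime2Δ* arrays read 4.29 and 3.75 (0 h), 2.78 and 2.18 (2 h), 2.05 and 1.98 (4 h), 2.18 and 2.25 (6 h). The WT arrays read 2.94 and 2.79 (0 h), 0.17 and 0.07 (2 h), -0.66 and -1.16 (4 h), -1.05 and -1.75 (6 h). Signal fell in both strains, far more in WT, and the arrays of the strains did not overlap at any time. The difference was already called at 0 h, at 1.16 ± 0.27 (adjusted p = 0.0303), a call lost without replicate 1 of *ime2Δ* at 0 h or either WT array at 0 h and under normexp background correction (adjusted p = 0.0644 to 0.31). It was 2.36 ± 0.27 (2 h), 2.92 ± 0.27 (4 h) and 3.61 ± 0.27 (6 h), and at the last time *PIR1* was 12.2-fold higher in *ime2Δ* (adjusted p = 1.62e-07), and the changes from 0 to 6 h differed by 2.45 ± 0.38 (adjusted p = 0.000229).

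*PIR3* was the one wall gene that was higher than at 0 h at every later time in *ime2Δ*. Its *ime2Δ* arrays read 3.37 and 4.20 (0 h), 4.70 and 4.51 (2 h), 4.93 and 5.01 (4 h), 4.97 and 4.99 (6 h), and both arrays at each later time lay above both at 0 h, although the 0 h pair was far apart. The WT arrays read 4.59 and 4.47 (0 h), 3.34 and 2.86 (2 h), 3.23 and 3.60 (4 h), 3.10 and 2.83 (6 h), all later ones below both 0 h arrays. The change at 6 h was 1.19 ± 0.25 in *ime2Δ* (adjusted p = 0.00161) and -1.56 ± 0.25 in WT (adjusted p = 0.000103). The 2 h change in *ime2Δ* was 0.82 ± 0.25 (adjusted p = 0.0218), a call lost without replicate 1 of *ime2Δ* at 0 h or either *ime2Δ* array at 2 h (adjusted p = 0.0517 to 0.236). The changes differed between the strains by 2.24 ± 0.36 (2 h), 2.30 ± 0.36 (4 h) and 2.76 ± 0.36 (6 h, adjusted p = 5.34e-05).

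*HSP150* (also known as *PIR2*), which encodes a secreted PIR protein induced by heat, fell much less in *ime2Δ* than in WT. On the *ime2Δ* arrays it read 5.05 and 5.14 (0 h), 4.43 and 3.97 (2 h), 4.44 and 4.07 (4 h), 4.42 and 4.68 (6 h). On the WT arrays it read 5.15 and 4.99 (0 h), 2.79 and 2.29 (2 h), 1.69 and 2.21 (4 h), 1.62 and 1.72 (6 h). The strains overlapped at 0 h and at no later time. The change at 6 h was -3.40 ± 0.24 in WT (adjusted p = 5.51e-08) and -0.55 ± 0.24 in *ime2Δ*, which was not called (adjusted p = 0.0674), and at 6 h the gene was 7.36-fold higher in *ime2Δ* (log2 difference 2.88 ± 0.24, adjusted p = 4.22e-07).

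*CIS3* (also known as *PIR4*) took the opposite course. The *ime2Δ* arrays read 4.50 and 4.69 (0 h), 2.44 and 1.76 (2 h), 0.50 and 0.11 (4 h), -0.78 and -0.37 (6 h), a fall at each step that gave the largest decrease of any member in that strain (-5.17 ± 0.25 at 6 h, adjusted p = 1.68e-08). In WT it read 3.73 and 4.03 (0 h), 1.03 and 0.94 (2 h), 1.01 and 1.26 (4 h), 3.30 and 3.68 (6 h), low at 2 and 4 h and at 6 h up again to just below its 0 h arrays, where the change from 0 h was -0.39 ± 0.25 and not called (adjusted p = 0.18). *CIS3* was thus higher in *ime2Δ* than in WT at 2 h, by 1.12 ± 0.25, a call lost without replicate 1 of *ime2Δ* at 2 h or replicate 2 of WT at 2 h (adjusted p = 0.0763 to 0.139). It was lower in *ime2Δ* at 4 h, with a difference of -0.83 ± 0.25, a call lost without replicate 2 of *ime2Δ* at 4 h or replicate 2 of WT at 4 h (adjusted p = 0.12 to 0.142), and at 6 h, with -4.07 ± 0.25 (adjusted p = 2.17e-08). *PIR1* and *PIR3* lie next to each other in the genome, as do *HSP150* and *CIS3*, and within each pair the neighbours moved differently. The probe sequences were not used here, so whether a probe also binds RNA of another PIR gene was not tested.

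Among the 8 mannoproteins, 6 were lower at 2 h in *ime2Δ* and 6 in WT (22.1% and 27.2% of all genes). At 6 h 7 were lower in *ime2Δ*, against 5 in WT (30.1% and 35.7% of all genes). In WT 2 were higher at 6 h, or 25% of the mannoproteins, below the 35.3% of all genes. *CWP1* encodes a major wall mannoprotein that is concentrated at the birth scar. It read 5.04 and 4.95 (0 h), 3.54 and 2.96 (2 h), 2.18 and 1.95 (4 h), 1.56 and 1.16 (6 h) in *ime2Δ* and fell at every step. In WT it read 4.86 and 4.94 (0 h), 1.50 and 0.90 (2 h), 3.82 and 3.94 (4 h), 5.66 and 5.96 (6 h), dropping below both *ime2Δ* arrays at 2 h and ending above both of its 0 h arrays. The difference between the strains was therefore 2.05 ± 0.24 at 2 h (adjusted p = 8.28e-05). It had turned to -1.82 ± 0.24 at 4 h (adjusted p = 0.000117) and was -4.45 ± 0.24 at 6 h (adjusted p = 6.41e-09), the last a 21.8-fold lower signal in *ime2Δ* and the largest difference of any member at that time. Its genomic neighbour *CWP2*, which encodes another major wall mannoprotein, fell in both strains, by 1.57 ± 0.21 in *ime2Δ* and 2.74 ± 0.21 in WT at 6 h.

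*CCW12*, the gene of a small mannoprotein needed for newly made wall in the bud, also turned back up in WT. Its arrays read 5.67 and 5.38 (0 h) and 3.44 and 3.58 (6 h) in *ime2Δ*, against 5.40 and 5.37 (0 h) and 5.38 and 5.85 (6 h) in WT, so that the strains were apart at 6 h by -2.10 ± 0.22 (adjusted p = 3.32e-06). At 2 h both strains had fallen, by 1.26 in *ime2Δ* and 1.37 in WT. *SED1*, which encodes a structural mannoprotein of stationary cells, had a narrow range: its 8 arrays spanned 5.31 to 5.84 in *ime2Δ* and 4.93 to 5.82 in WT, with no change called in *ime2Δ*. In WT it was lower at 2 h (-0.56 ± 0.17, adjusted p = 0.0143), a call lost without replicate 1 of WT at 0 h or replicate 2 of WT at 2 h and under normexp, 75th percentile scaling and quantile normalization (adjusted p = 0.0725 to 0.361). It had a change of -0.73 ± 0.17 in WT at 6 h (adjusted p = 0.00174), a call lost under normexp background correction (adjusted p = 0.0553). *CCW14* fell in both strains at each time, and *TIR1*, a mannoprotein gene induced by cold and anaerobic growth, was lower at 6 h by 1.61 in *ime2Δ* and 1.72 in WT with no difference called between the strains at any time.

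*SVS1* and *TOS6* were set apart by their 0 h values. *SVS1*, named for the vanadate sensitivity of its mutant, read 0.75 and -0.24 (0 h), -0.95 and -1.57 (2 h), -1.56 and -1.57 (4 h), -1.81 and -1.27 (6 h) in *ime2Δ*. In WT the values were -1.02 and -1.70 (0 h), -1.33 and -1.08 (2 h), -1.09 and -0.81 (4 h), -0.09 and 0.33 (6 h). The *ime2Δ* arrays began above the WT arrays and ended below them. *TOS6*, which encodes a mannoprotein of unknown function, read 0.06 and -0.80 (0 h), -1.72 and -2.48 (2 h), -3.69 and -4.35 (4 h), -4.77 and -3.77 (6 h) in *ime2Δ*. On the WT arrays it read -2.68 and -2.91 (0 h), -2.08 and -1.93 (2 h), -3.83 and -4.46 (4 h), -3.92 and -3.71 (6 h). Both strains were low by 4 h. At 0 h both genes were higher in *ime2Δ* on both arrays. The difference was 1.61 ± 0.34 for *SVS1* (adjusted p = 0.0172), a call lost without replicate 1 of *ime2Δ* at 0 h or replicate 2 of WT at 0 h (adjusted p = 0.123 to 0.216), and 2.43 ± 0.38 for *TOS6* (adjusted p = 0.00269), a call lost without replicate 1 of *ime2Δ* at 0 h (adjusted p = 0.0564). The 2 *ime2Δ* arrays at 0 h differed from each other by 0.99 for *SVS1* and 0.86 for *TOS6*. *SVS1* then fell in *ime2Δ* and rose in WT, with changes at 6 h of -1.79 ± 0.34 and 1.48 ± 0.34 (adjusted p = 0.000666 and 0.00149) and a difference in change of -3.27 ± 0.47 (adjusted p = 0.000132). *TOS6* fell by 3.90 in *ime2Δ* by 6 h and by 1.02 in WT, where it was already low at 0 h, a call lost without either WT array at 0 h or either WT array at 6 h (adjusted p = 0.0565 to 0.122). No difference in *TOS6* between the strains was called after 0 h.

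**Figure D2:**
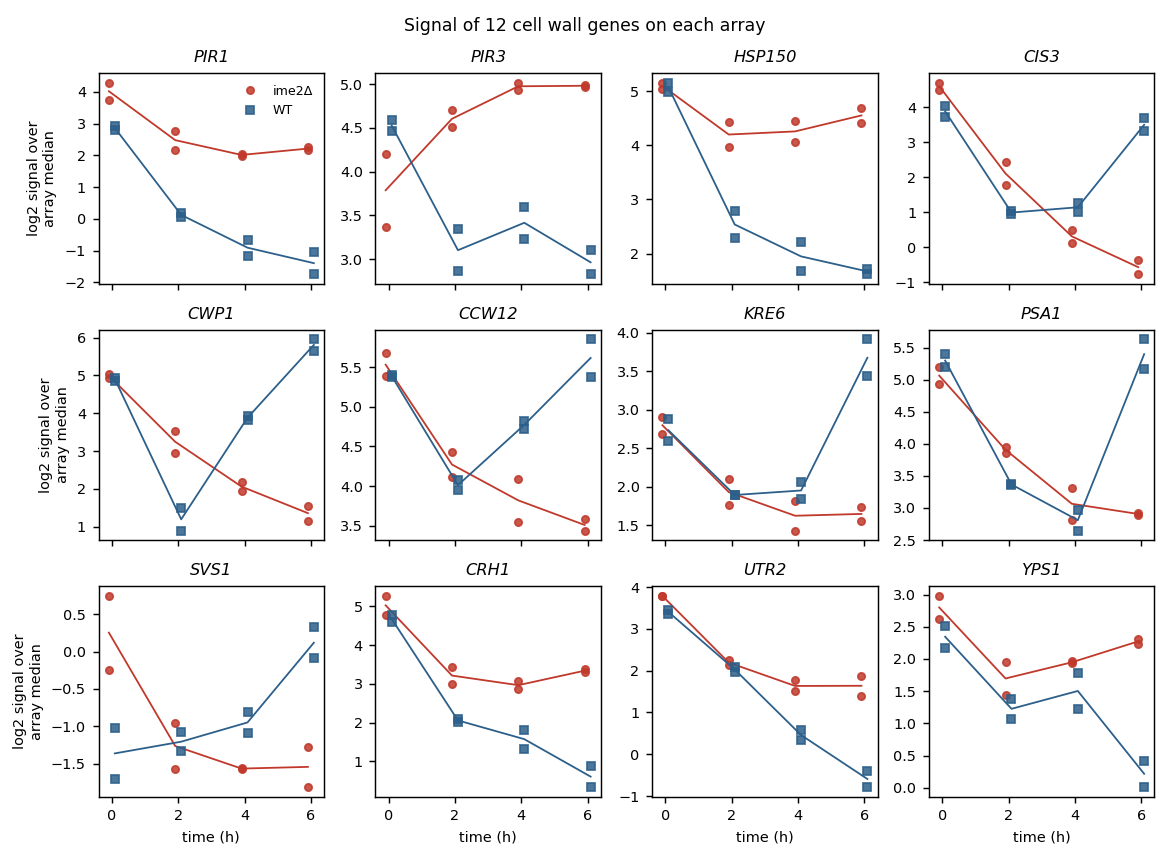
Log2 signal over the array median (vertical axis, its range set for each gene) against time in h (horizontal axis) for 12 wall genes, with each array as a point and the group mean as a line, *ime2Δ* in red circles and WT in blue squares. *PIR1*, *PIR3*, *HSP150*, *CRH1*, *UTR2* and *YPS1* end higher in *ime2Δ*, and *CIS3*, *CWP1*, *CCW12*, *KRE6*, *PSA1* and *SVS1* end higher in WT.

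Of the 9 genes that make and remodel β-1,3-glucan, 8 were lower at 6 h than at 0 h in *ime2Δ* and 8 in WT. Among all genes 30.1% were lower in *ime2Δ* and 35.7% in WT. *FKS1*, the catalytic subunit of the glucan synthase of growing cells, read 3.32 and 3.51 (0 h) and 1.75 and 1.89 (6 h) in *ime2Δ*, against 3.67 and 3.69 (0 h) and 0.82 and 0.68 (6 h) in WT. It fell by 1.59 ± 0.19 in *ime2Δ* and by 2.93 ± 0.19 in WT, and these changes differed by 1.34 ± 0.27 (adjusted p = 0.00149). *EXG1*, which encodes the major exoglucanase, read 5.10 and 5.32 (0 h), 3.83 and 4.11 (2 h), 3.74 and 3.67 (4 h), 3.25 and 3.92 (6 h) in *ime2Δ*. The WT values were 5.46 and 5.33 (0 h), 3.73 and 3.36 (2 h), 2.04 and 2.25 (4 h), 2.05 and 2.59 (6 h). The strains separated at 4 h, by 1.56 ± 0.24 (adjusted p = 0.000436), and were still apart at 6 h, by 1.26 ± 0.24. *SCW10*, the gene of a soluble glucanase-like wall protein, read 2.29 and 1.93 (0 h), 0.61 and 0.09 (2 h), -0.17 and -0.16 (4 h), 0.12 and 1.26 (6 h) in *ime2Δ*. The WT arrays read 1.82 and 1.58 (0 h), 1.07 and 1.34 (2 h), -0.10 and -0.53 (4 h), -1.03 and -1.88 (6 h). Here a fall was called by 2 h in *ime2Δ* (-1.76 ± 0.36, adjusted p = 0.00186), where the change in WT was -0.49 ± 0.36 (adjusted p = 0.266). The difference between these 2 changes, -1.27, was not called. At 6 h *SCW10* was higher in *ime2Δ* by 2.14 ± 0.36 (adjusted p = 0.000194), although its 2 *ime2Δ* arrays lay 1.15 apart.

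The genes of the Gas family, whose proteins elongate β-1,3-glucan, did not move together. *GAS1*, the main member in growing cells, fell by 1.88 in *ime2Δ* and 2.33 in WT at 6 h. *GAS3* read 0.83 and 1.18 (0 h), 0.31 and 0.26 (2 h), 0.21 and 0.25 (4 h), 0.15 and 0.48 (6 h) in *ime2Δ*. In WT the values were 1.43 and 1.53 (0 h), 1.69 and 2.00 (2 h), 1.86 and 1.43 (4 h), 1.14 and 0.66 (6 h). The arrays of the strains did not overlap at any time, with *ime2Δ* the lower. *GAS3* was the one member called lower in *ime2Δ* at 2 h, with a difference of -1.57 ± 0.22 (adjusted p = 0.000316), and it was lower again at 4 h, with -1.42 ± 0.22. *GAS5* was not called changed at any time in *ime2Δ* and was lower by 1.02 at 2 h and 1.06 at 6 h in WT. The exoglucanase gene *EXG2* was the one member higher at all 3 later times in WT, by 0.75 ± 0.27, 0.90 ± 0.27 and 1.17 ± 0.27 (adjusted p = 0.037, 0.0119 and 0.00185). The 2 h value was not called without replicate 2 of WT at 0 h or either WT array at 2 h and under quantile normalization (adjusted p = 0.0538 to 0.211), and the 4 h value was not called without replicate 2 of WT at 0 h or replicate 1 of WT at 4 h (adjusted p = 0.0807 to 0.0966). *EXG2* was lower in *ime2Δ* at 6 h, by 0.99 (adjusted p = 0.00868), a call lost without replicate 1 of *ime2Δ* at 0 h (adjusted p = 0.113). *BGL2* and *SCW4*, which encode abundant soluble wall proteins related to glucanases, were lower at 6 h in both strains. *BGL2* was lower by 0.90 in *ime2Δ*, a call lost under quantile normalization (adjusted p = 0.13), and by 1.49 in WT. *SCW4* was lower by 1.01 in *ime2Δ*, a call lost without either *ime2Δ* array at 0 h or replicate 2 of *ime2Δ* at 6 h and under 75th percentile scaling and quantile normalization (adjusted p = 0.0664 to 0.265), and by 2.21 in WT.

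Of the 3 genes of β-1,6-glucan, 2 were lower at 6 h in *ime2Δ* and 1 was higher in WT. Among all genes 30.1% were lower in *ime2Δ* and 35.3% higher in WT, so the WT count lies near the background. *KRE6*, a membrane protein needed to make this glucan, read 2.91 and 2.69 (0 h), 2.10 and 1.76 (2 h), 1.82 and 1.43 (4 h), 1.55 and 1.74 (6 h) in *ime2Δ*. On the WT arrays it read 2.88 and 2.59 (0 h), 1.90 and 1.89 (2 h), 2.06 and 1.85 (4 h), 3.43 and 3.91 (6 h). The strains overlapped at 0 and 2 h, and at 6 h both WT arrays were above all others. The changes at 6 h were -1.15 ± 0.21 in *ime2Δ* and 0.94 ± 0.21 in WT (adjusted p = 0.000586 and 0.00139), with a difference of -2.09 ± 0.30 between them (adjusted p = 0.000119). *KRE1* had a difference in change of -1.09 ± 0.30 in the same direction (adjusted p = 0.00996), a call lost under quantile normalization (adjusted p = 0.074). The *ime2Δ* call of *KRE1* at 6 h was lost under quantile normalization and 75th percentile scaling (adjusted p = 0.3745 and 0.162). *KRE9* was not called at 6 h in either strain.

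All 5 genes of chitin and its crosslinks were lower at 2 h and at 4 h in both strains. At 6 h 5 were still lower in *ime2Δ*, against 3 in WT. Of all genes, 22.1% (2 h), 26.9% (4 h) and 30.1% (6 h) were lower in *ime2Δ*, and 27.2%, 31.8% and 35.7% in WT. *CRH1* and *UTR2* encode transglycosylases that join chitin to glucan. *CRH1* read 5.28 and 4.77 (0 h), 3.43 and 2.99 (2 h), 3.07 and 2.86 (4 h), 3.38 and 3.30 (6 h) in *ime2Δ*. The WT values were 4.77 and 4.58 (0 h), 2.10 and 2.01 (2 h), 1.82 and 1.33 (4 h), 0.87 and 0.34 (6 h). The signal levelled off after 2 h in *ime2Δ* and fell throughout in WT. It was 6.64-fold higher in *ime2Δ* at 6 h (log2 difference 2.73 ± 0.24, adjusted p = 8.84e-07). *UTR2* read 3.80 and 3.78 (0 h), 2.25 and 2.13 (2 h), 1.77 and 1.50 (4 h), 1.40 and 1.87 (6 h) in *ime2Δ*. The WT arrays read 3.35 and 3.46 (0 h), 1.97 and 2.09 (2 h), 0.35 and 0.57 (4 h), -0.40 and -0.78 (6 h). The strains parted later, with differences of 0.17 ± 0.19 (2 h, adjusted p = 0.634), 1.18 ± 0.19 (4 h) and 2.23 ± 0.19 (6 h, adjusted p = 6.92e-07).

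The chitin synthase genes were split at 6 h, with *CHS2* and *CHS3* lower and *CHS1* higher in *ime2Δ* than in WT. *CHS2*, which encodes the synthase of the primary septum, read -0.35 and -0.58 (0 h), -1.52 and -2.31 (2 h), -2.61 and -2.87 (4 h), -3.00 and -3.35 (6 h) in *ime2Δ*. In WT the values were -1.80 and -1.72 (0 h), -2.94 and -3.20 (2 h), -3.96 and -3.36 (4 h), -2.08 and -1.89 (6 h). Both strains fell to 4 h, with *ime2Δ* the higher by 1.30 ± 0.26 at 0 h, a call lost without replicate 1 of *ime2Δ* at 0 h or either WT array at 0 h (adjusted p = 0.0615 to 0.161), by 1.15 ± 0.26 at 2 h, a call lost without replicate 1 of *ime2Δ* at 2 h or replicate 2 of WT at 2 h (adjusted p = 0.107 to 0.164) and by 0.92 ± 0.26 at 4 h, a call lost without replicate 1 of *ime2Δ* at 4 h or replicate 1 of WT at 4 h (adjusted p = 0.134 to 0.16). At 6 h *ime2Δ* was the lower (-1.18 ± 0.26, adjusted p = 0.00176). *CHS3*, the gene of the synthase that makes most of the chitin of the wall, was lower at 6 h in *ime2Δ* by 0.71 (adjusted p = 0.011), a call lost without replicate 1 of *ime2Δ* at 0 h and under 75th percentile scaling and quantile normalization (adjusted p = 0.0559 to 0.158) and had a change of 0.37 ± 0.21 in WT (adjusted p = 0.126). *CHS1*, whose product repairs the wall after separation, was lower by 1.45 in *ime2Δ* and 1.73 in WT, and no difference in change was called (0.28 ± 0.26, adjusted p = 0.386). At 6 h it was higher in *ime2Δ* by 0.72 ± 0.18 (adjusted p = 0.00417).

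The yapsins are proteases anchored at the cell surface, and their 2 genes lie side by side. *YPS3* read 0.74 and -0.19 (0 h), -1.56 and -2.77 (2 h), -2.29 and -3.07 (4 h), -2.07 and -2.42 (6 h) in *ime2Δ*. On the WT arrays it read -0.22 and -1.04 (0 h), -3.12 and -3.57 (2 h), -2.76 and -3.29 (4 h), -3.04 and -2.52 (6 h). By 2 h the change was -2.44 ± 0.44 in *ime2Δ* and -2.71 ± 0.44 in WT, with no difference called between the strains at any time. *YPS1* read 2.98 and 2.61 (0 h) and 2.31 and 2.24 (6 h) in *ime2Δ*, against 2.51 and 2.18 (0 h) and 0.42 and 0.01 (6 h) in WT. The 6 h arrays of the strains did not overlap, and *YPS1* was 4.16-fold higher in *ime2Δ* (log2 difference 2.06 ± 0.25, adjusted p = 1.36e-05).

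Of the 3 genes of mannosylation, 3 were lower at 6 h in *ime2Δ* and 2 in WT, against 30.1% and 35.7% of all genes. The *ime2Δ* call of *OCH1* at 6 h was lost under normexp and 75th percentile scaling (adjusted p = 0.082 and 0.291). Without replicate 1 of *ime2Δ* at 0 h its change was -0.32. *PSA1*, which encodes the enzyme that makes GDP-mannose, read 4.93 and 5.20 (0 h), 3.96 and 3.86 (2 h), 3.32 and 2.81 (4 h), 2.89 and 2.92 (6 h) in *ime2Δ*. The WT values were 5.20 and 5.40 (0 h), 3.36 and 3.38 (2 h), 2.97 and 2.65 (4 h), 5.17 and 5.63 (6 h). It fell in both strains to 4 h, and at 6 h 1 WT array was just below its 0 h arrays and the other above them. It was 5.63-fold lower in *ime2Δ* at that time (log2 difference -2.49 ± 0.21, adjusted p = 5.56e-07). *MNN1* and *OCH1*, mannosyltransferases of the Golgi, were both higher in *ime2Δ* than in WT at 6 h, *MNN1* by 1.17 ± 0.23 and *OCH1* by 0.70 ± 0.19, the second a call lost without replicate 2 of WT at 6 h (adjusted p = 0.0703).

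The 4 genes of daughter cell separation were higher in *ime2Δ* than in WT at 2 h and at 4 h, each on both arrays. Among all genes 4.54% were called higher at 2 h and 14.2% at 4 h. At 0 h the median difference of the 4 separation genes was already 1.00, with 1 of them, *SCW11*, called. The 4 h calls of *CTS1* (1.00 ± 0.26) and *DSE1* (0.79 ± 0.26) were lost without replicate 1 of *ime2Δ* at 4 h and without 1 of the WT arrays at 4 h, which was replicate 2 for *CTS1* (adjusted p = 0.0979 to 0.127) and replicate 1 for *DSE1* (adjusted p = 0.193 to 0.274). *DSE1* and *DSE2* are expressed in daughter cells, *DSE2* encoding a glucanase-like protein that helps to cut the septum. *DSE1* read 1.06 and 1.29 (0 h), 0.82 and 0.44 (2 h), -1.05 and -1.57 (4 h), -2.36 and -2.76 (6 h) in *ime2Δ*. The WT arrays read -0.07 and 0.48 (0 h), -1.56 and -1.36 (2 h), -2.29 and -1.90 (4 h), -1.55 and -1.87 (6 h). At 2 h it was lower than at 0 h by 1.66 in WT (adjusted p = 0.000196) and had a change of -0.54 ± 0.26 in *ime2Δ* (adjusted p = 0.109). The strains then differed by 2.09 ± 0.26 (adjusted p = 0.000116), of which 0.97 was already there at 0 h (adjusted p = 0.0506). At 6 h the order was turned and *DSE1* was lower in *ime2Δ* by 0.84 (adjusted p = 0.0112), a call lost without replicate 2 of *ime2Δ* at 6 h or replicate 1 of WT at 6 h and under 75th percentile scaling (adjusted p = 0.0681 to 0.0937).

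*DSE2* read 1.08 and 1.47 (0 h), 0.58 and 0.19 (2 h), -0.57 and -1.49 (4 h), -2.25 and -2.61 (6 h) in *ime2Δ*. In WT the values were 0.09 and 0.38 (0 h), -1.38 and -1.42 (2 h), -2.11 and -2.95 (4 h), -2.93 and -3.02 (6 h). It was higher in *ime2Δ* at 2 h by 1.79 ± 0.31 (adjusted p = 0.00202) and at 4 h by 1.50 ± 0.31, a call lost without replicate 1 of *ime2Δ* at 4 h (adjusted p = 0.0524), and the difference at 6 h, 0.55 ± 0.31, was not called. *SCW11*, a glucanase-like protein of the septum, read -1.12 and -1.38 (0 h), -1.54 and -1.80 (2 h), -2.38 and -2.90 (4 h), -2.94 and -3.23 (6 h) in *ime2Δ*. On the WT arrays it read -2.31 and -2.37 (0 h), -3.17 and -2.98 (2 h), -3.56 and -3.67 (4 h), -4.23 and -4.23 (6 h). The arrays of the strains did not overlap at any time. It was higher in *ime2Δ* at 0 h by 1.09 ± 0.20, a call lost without replicate 1 of *ime2Δ* at 0 h or replicate 1 of WT at 0 h (adjusted p = 0.0551 to 0.11) and at 6 h by 1.14 ± 0.20. Its change over 6 h was -1.83 ± 0.20 in *ime2Δ* and -1.89 ± 0.20 in WT, with a difference that was not called (0.06 ± 0.28, adjusted p = 0.876). *CTS1*, the chitinase that cuts the primary septum, was 1.95 and 1.46 in *ime2Δ* and 0.19 and 0.08 in WT at 2 h and higher in *ime2Δ* by 1.57 ± 0.26 (adjusted p = 0.00126). The 2 h changes of these 4 genes differed between the strains by 0.32 to 1.20, and none of these 4 differences was called, with adjusted p-values of 0.11 to 0.67.

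The genes of the RAM network and of daughter-specific transcription were set beside them. In *ime2Δ* 2 of these 8 genes were higher and 2 lower at 6 h, against 3 higher and 4 lower in WT. Over all genes 24.5% were higher and 30.1% lower in *ime2Δ*, and 35.3% higher and 35.7% lower in WT, so the counts of these 8 lie near the background. *SWI5*, which encodes a transcription factor of late mitosis and early G1, read -1.52 and -1.39 (0 h), -2.36 and -3.04 (2 h), -3.88 and -3.15 (4 h), -3.89 and -3.29 (6 h) in *ime2Δ*. The WT arrays read -2.85 and -2.74 (0 h), -3.59 and -3.24 (2 h), -3.40 and -2.34 (4 h), -0.50 and 0.12 (6 h). At 6 h both WT arrays were above all others. The change at 6 h was -2.14 ± 0.37 in *ime2Δ* (adjusted p = 0.000372) and 2.60 ± 0.37 in WT (adjusted p = 3.25e-05). *DSE2*, *CTS1* and *SCW11* were at their lowest WT means at 6 h, when the WT signal of *SWI5* was at its highest. *DSE1* had its lowest WT mean at 4 h (-2.10) and read -1.71 at 6 h. The transcription factor gene *ASH1* fell in WT, from 1.93 and 2.09 (0 h) to -0.93 and -1.04 (6 h). *HYM1*, another of the 8, rose in WT from 0.06 and 0.14 (0 h) to 4.53 and 5.14 (6 h). Whether any of these 8 genes bears on the signal of the separation genes was not tested.

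**Figure D3:**
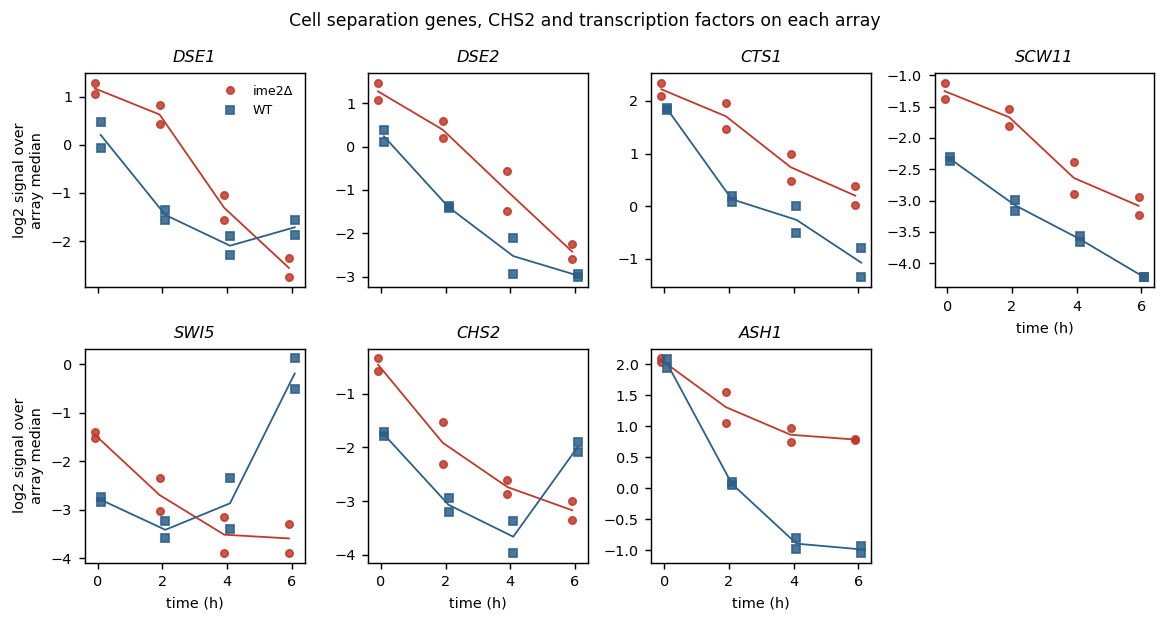
Log2 signal over the array median (vertical axis, its range set for each gene) against time in h for the 4 separation genes, *CHS2* and the transcription factor genes *SWI5* and *ASH1*, with each array as a point and group means joined, *ime2Δ* in red circles and WT in blue squares. The separation genes lie higher in *ime2Δ* at 2 and 4 h, and *SWI5* and *CHS2* turn up in WT at 6 h.

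Over all roles, 25 of the 38 genes were lower at all 3 later times in *ime2Δ* and 20 in WT, where 18.9% of all genes were in *ime2Δ* and 18.3% in WT. Under 75th percentile scaling *CHS3*, *DSE2*, *GAS3*, *KRE1* and *OCH1* of the 25 lost a call at some time. Of the 20 in WT, *SCW11* did. Members lower at all 3 times were not recounted under that scaling, so the order of the strains is given for median scaling only. After 2 h, 22 genes were lower in both strains, 6 in *ime2Δ* alone (*GAS3*, *KRE1*, *OCH1*, *SCW10*, *SVS1* and *TOS6*) and 8 in WT alone (*BGL2*, *CTS1*, *DSE1*, *GAS5*, *SCW11*, *SCW4*, *SED1* and *TIR1*), although of these 14 only *TOS6* had a difference in the 2 h change that was itself called. That call was lost without replicate 1 of *ime2Δ* at 0 h, replicate 2 of *ime2Δ* at 2 h or any of the WT arrays at 0 and 2 h, each left out alone (adjusted p = 0.0534 to 0.137). The share of all genes lower at 2 h in both strains, or in 1 alone, was not counted, so the counts of 22, 6 and 8 are a description. The study lists 94 genes as targets of SBF, the Swi4-Swi6 factor of late G1, from an earlier cell cycle study, and 11 of them were members (*CIS3*, *CRH1*, *EXG1*, *GAS1*, *MNN1*, *OCH1*, *PSA1*, *SCW10*, *SVS1*, *TOS6* and *YPS3*). After 2, 4 and 6 h, 11, 11 and 11 of these 11 were lower in *ime2Δ*, against 7, 9 and 8 in WT. Of the 27 members not in the SBF list, 17, 20 and 21 were lower in *ime2Δ*, against 24, 20 and 19 in WT. Over all genes the shares called lower were 22.1%, 26.9% and 30.1% in *ime2Δ* and 27.2%, 31.8% and 35.7% in WT, and the difference between the listed and other members was not tested. Of the 111 genes listed for MBF, the related factor with Mbp1, 5 were members (*CRH1*, *EXG1*, *MNN1*, *OCH1* and *SCW10*), all of them also in the SBF list.

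**Figure D4:**
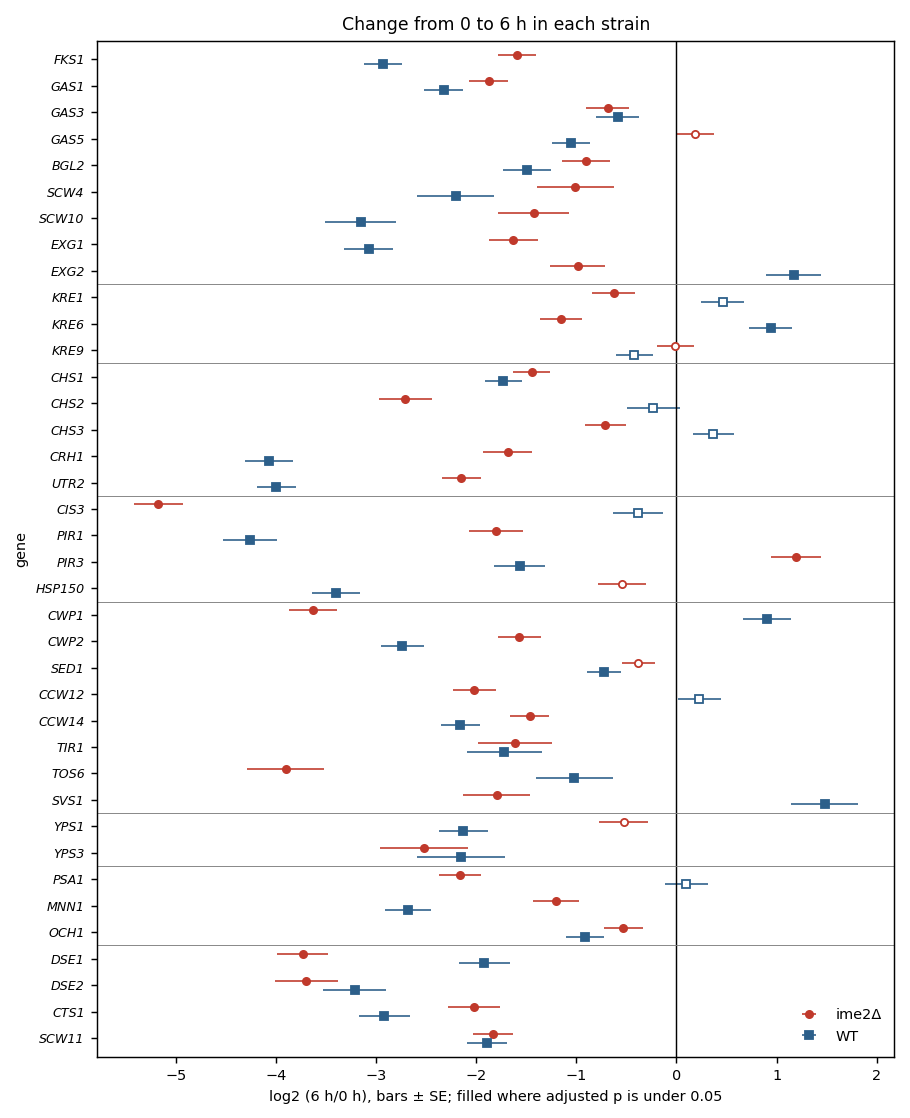
Fitted log2 (6 h/0 h) of the 38 genes (rows, by role from top to bottom as in the text of the opening), *ime2Δ* as red circles above WT as blue squares, with SE bars and filled symbols where the adjusted p is under 0.05. In *ime2Δ* 32 genes are lower and *PIR3* is higher. In WT 27 are lower and *CWP1*, *EXG2*, *KRE6* and *SVS1* are higher.

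Several enzyme families of the wall have forms that are used in sporulation, and these rose in WT, where 8 of their 9 vegetative relatives were below their 0 h level at 6 h. The exception was *EXG2*, which rose as did its relative *SPR1*. Of 7 such genes, 7 were higher at 6 h in WT, with a median change of 6.50, against 4 higher and 1 lower in *ime2Δ* with a median of 0.53. Over all genes 24.5% were higher in *ime2Δ* and 35.3% in WT. At 0 h 4 of the 7 (*GAS2*, *GAS4*, *SPR1* and *CTS2*) were already lower in *ime2Δ* than in WT, by 1.48 to 2.27, and whether this plays a part in the later differences was not tested. *GAS2* and *GAS4*, which elongate the glucan of the spore wall, changed by 0.68 ± 0.21 and -0.13 ± 0.18 in *ime2Δ* and by 7.28 ± 0.21 and 6.97 ± 0.18 in WT, where *GAS1* fell. *CRR1*, the sporulation relative of *CRH1* and *UTR2*, changed by -0.92 ± 0.27 in *ime2Δ* and 5.13 ± 0.27 in WT. *SPR1*, a sporulation exoglucanase, changed by 0.53 ± 0.21 in *ime2Δ* and 6.50 ± 0.21 in WT, and *CTS2*, a chitinase of sporulating cells, by 1.18 ± 0.22 in *ime2Δ* and 6.51 ± 0.22 in WT.

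*FKS1* has a pair of such relatives, of which *GSC2* rose in WT alone and *FKS3* in both strains. *GSC2*, the synthase subunit that replaces *FKS1* in sporulating and starved cells, read 4.36 and 4.15 (0 h), 4.28 and 4.06 (2 h), 4.50 and 4.29 (4 h), 4.41 and 4.23 (6 h) in *ime2Δ*. In WT the values were 4.14 and 3.92 (0 h), 4.01 and 3.79 (2 h), 4.29 and 3.88 (4 h), 5.21 and 5.44 (6 h). The 6 h arrays were the highest in WT. The change at 6 h was 0.07 ± 0.19 in *ime2Δ* (adjusted p = 0.788) and 1.30 ± 0.19 in WT (adjusted p = 3.91e-05). *FKS3*, which acts in the spore wall and lies between *SCW10* and *GAS1* in the genome, read -1.91 and -2.31 (0 h), 0.40 and 0.49 (2 h), 1.03 and 1.12 (4 h), 1.66 and 1.74 (6 h) in *ime2Δ*. On the WT arrays it read -2.02 and -2.51 (0 h), 1.42 and 1.53 (2 h), 2.46 and 2.62 (4 h), 2.04 and 1.63 (6 h). It rose in both strains by 2 h, but was called lower in *ime2Δ* than in WT at 2 and 4 h. The rise from 0 to 4 h was also called smaller in *ime2Δ*. No difference in the 6 h change was called (-0.28 ± 0.29, adjusted p = 0.43). *SCW10* and *GAS1* on either side of *FKS3* fell.

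**Figure D5:**
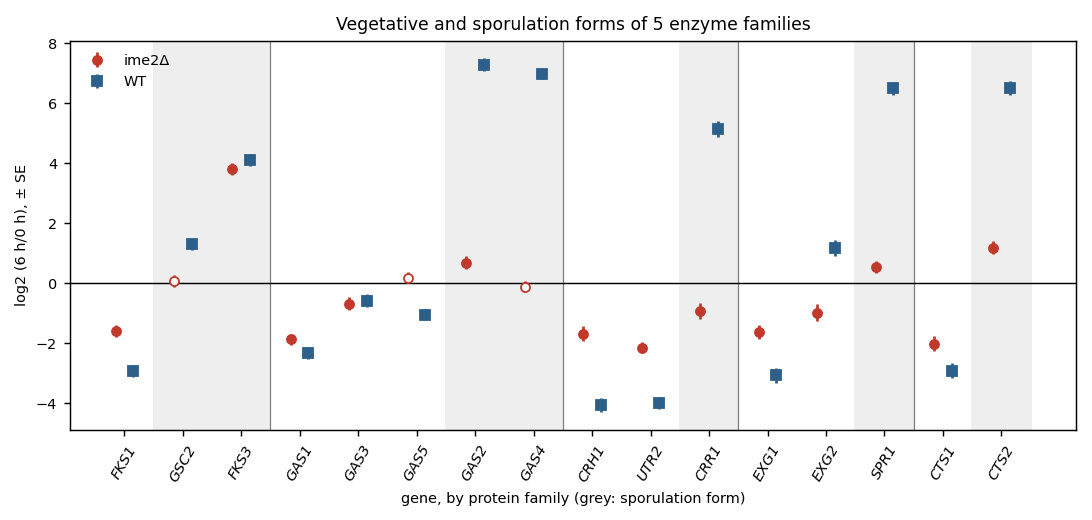
Fitted log2 (6 h/0 h) with SE bars (vertical axis) for 16 genes of 5 enzyme families (horizontal axis, families divided by lines, sporulation forms shaded grey), *ime2Δ* as red circles left of WT as blue squares, with filled symbols where the adjusted p is under 0.05. In WT the 7 sporulation forms lie above 0 and 8 of the 9 vegetative genes below it. *FKS3* lies well above 0 in both strains.

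The cell wall integrity pathway senses stress on the wall and, through Rho1, Pkc1 and the kinase Slt2, raises the expression of wall genes. Of its 17 genes, 1 was higher and 10 lower at 6 h in *ime2Δ*, against 5 higher and 10 lower in WT (24.5% of all genes higher and 30.1% lower in *ime2Δ*, 35.3% and 35.7% in WT). *SLT2* read 3.97 and 3.77 (0 h), 2.28 and 1.99 (2 h), 1.98 and 1.76 (4 h), 2.09 and 1.69 (6 h) in *ime2Δ*. The WT values were 3.99 and 3.77 (0 h), 1.29 and 1.12 (2 h), 1.43 and 1.56 (4 h), 1.26 and 0.74 (6 h). It fell by 2 h in both strains, with changes of -1.73 ± 0.21 in *ime2Δ* and -2.67 ± 0.21 in WT. It was higher in *ime2Δ* at 6 h by 0.89 ± 0.21 (adjusted p = 0.00259). *RLM1*, the transcription factor that Slt2 activates, was lower at 6 h in both strains, by 1.19 in *ime2Δ* and 0.63 in WT. *RHO1* read 3.08 and 3.37 in *ime2Δ* and 4.16 and 4.83 in WT at 6 h. Compared with WT at 6 h, 8 of the 17 genes were called higher and 6 lower in *ime2Δ*, against 33.1% and 31.1% of all genes. Genes of the upstream part split: *WSC4*, *ROM2* and *WSC2* were lower in *ime2Δ* than in WT at 6 h, with differences of -4.81 ± 0.37, -3.35 ± 0.19 and -2.86 ± 0.22, while *ROM1*, *MTL1*, *WSC3* and *WSC1* (*SLG1* in RefSeq) were higher, by 1.89 ± 0.24, 1.80 ± 0.28, 1.31 ± 0.18 and 1.03 ± 0.16. *ROM2* encodes an exchange factor that activates Rho1, *ROM1* its close relative, and the others sensors in the plasma membrane.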

How the data were processed

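Total RNA of *ime2Δ* and WT cells at 0, 2, 4 and 6 h was hybridized to 16 single color Agilent yeast arrays, 2 per group. The authors obtained spot intensities with Agilent Feature Extraction 10.7.1.1, whose processed signal has background removed and spatial trends corrected, and deposited them without scaling between arrays. The authors also deposited log2 values scaled to each array's median, used here as an alternative. Array median intensities ranged from 7582.1 to 14906, and the number of arrays limits the precision.

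Each gene's main value was the mean log2 processed intensity of its 2 spots minus the array median, without the spots marked non-uniform or outlying (0 to 13 per array; none was saturated). Systematic names were paired with symbols through RefSeq, which held 5756 of the 6256. Genome coordinates and sequences were not used here. The 8 groups were fitted together with lmFit and eBayes of limma 3.58.1, run under R 4.3.3 (8 residual and 4.58 prior degrees of freedom), with two-sided tests and Benjamini-Hochberg adjustment over 6254 genes, *IME2* and *TRP1* left out. The fit was checked on simulated data. It treats arrays as independent, although arrays of 1 strain and replicate number could be aliquots of 1 culture, and the p-values then measure only the spread between these arrays.

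The members, the comparison lists and the tests were chosen with earlier results of these data known. Values per array are given for the called members with the largest absolute difference in a comparison (up to 6) and for at least 1 member of each role; those of *CCW12*, *FKS1*, *YPS1*, *CTS1* and *SED1* and of genes in the comparison lists were added after their values were seen. The comparison lists were 7 sporulation forms, 17 integrity pathway genes, 8 genes of the RAM network and daughter-specific transcription (1 further gene is not reported here), 6 early and 6 middle meiotic genes, and the SBF and MBF lists. The fit was repeated with each array left out, with the replicate number as a block, with trend and robust eBayes, on the 5915 genes well above background on all arrays and with calls of at least 1 log2 unit. Values were also remade by quantile normalization, by 75th percentile scaling, by normexp on median signals (offset 50) and from the authors' normalized table.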

Additional observations from a re-analysis of the deposited data

Results flagged for a closer look

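The results below are the members whose change from 0 h differed between *ime2Δ* and WT by the test of the difference itself (limma, adjusted p under 0.05), given as the log2 change in *ime2Δ* minus that in WT. From 0 to 2 h the difference was positive for *PIR3* (2.24), *CWP1* (1.96) and *HSP150* (1.64), with adjusted p = 0.00468 to 0.0202. From 0 to 2 h the difference was negative for *TOS6* (-2.52), with adjusted p = 0.0253. From 0 to 4 h the difference was positive for *PIR3* (2.30), *HSP150* (2.28), *PIR1* (1.76) and *EXG1* (1.74), with adjusted p = 0.000656 to 0.00833. From 0 to 4 h the difference was negative for *TOS6* (-2.30), *SVS1* (-2.23), *CWP1* (-1.91), *EXG2* (-1.57), *CIS3* (-1.55) and *CCW12* (-1.09), with adjusted p = 0.00233 to 0.0295. From 0 to 6 h the difference was positive for *HSP150* (2.85), *PIR3* (2.76), *PIR1* (2.45), *CRH1* (2.38), *UTR2* (1.85), *SCW10* (1.73), *YPS1* (1.60), *MNN1* (1.48), *EXG1* (1.44), *FKS1* (1.34), *GAS5* (1.24) and *CWP2* (1.17), with adjusted p = 2.17e-05 to 0.0125. From 0 to 6 h the difference was negative for *CIS3* (-4.79), *CWP1* (-4.54), *SVS1* (-3.27), *TOS6* (-2.88), *CHS2* (-2.48), *PSA1* (-2.26), *CCW12* (-2.24), *EXG2* (-2.16), *KRE6* (-2.09), *DSE1* (-1.81), *KRE1* (-1.09) and *CHS3* (-1.08), with adjusted p = 2.94e-07 to 0.00996. *CWP1* was above 0 at 2 h and below 0 at 4 and 6 h. *TOS6* was below 0 at all 3 times and *PIR3* and *HSP150* above 0 at all 3. Some of these calls were lost when 1 array was left out: at 2 h *HSP150* in 4 such fits (adjusted p = 0.0756 to 0.108) and *TOS6* in 6 (0.0534 to 0.137), at 4 h *CCW12* in 6 (0.0511 to 0.112), *EXG2* in 4 (0.0541 to 0.0713) and *TOS6* without replicate 1 of *ime2Δ* at 0 h (0.0631), and at 6 h *SCW10* without replicate 2 of *ime2Δ* at 6 h (0.0544) or replicate 2 of WT at 6 h (0.062). Those of *CHS3* and *KRE1* at 6 h were lost under quantile normalization (adjusted p = 0.0705 and 0.074). The arrays concerned were replicate 1 of *ime2Δ* at 0 h for *HSP150*, *TOS6*, *CCW12* and *EXG2*; at 2 h, besides, replicate 1 of *ime2Δ* at 2 h, replicate 1 of WT at 0 h and replicate 2 of WT at 2 h for *HSP150*, and replicate 2 of *ime2Δ* at 2 h and each WT array at 0 and 2 h for *TOS6*. At 4 h they were, besides, replicate 2 of *ime2Δ* at 4 h and each WT array at 0 and 4 h for *CCW12*, and replicate 1 of *ime2Δ* at 4 h, replicate 2 of WT at 0 h and replicate 1 of WT at 4 h for *EXG2*. *SVS1*, *TOS6*, *CHS2* and *PIR1* also differed between the strains at 0 h, and a difference in change for them includes the spread of the 0 h arrays. *EXG2*, *KRE6*, *CWP1*, *SVS1* and *PIR3* are the members called in opposite directions in the 2 strains at 6 h. The share of all genes with such opposite calls was not counted, and 64.2% of all genes differed between the strains at that time.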

How the results depend on the processing

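With a minimum absolute log2 difference of 1, 19 members in place of 29 were called in *ime2Δ* at 2 h against 0 h, and 9 in place of 20 between the strains at 4 h. Leaving out 1 array at a time gave 0 to 6 members called between the strains at 0 h (5 with all arrays), 12 to 20 at 4 h (20 with all arrays), and 2 to 5 for the difference in change at 2 h (4 with all arrays). The other totals of members called, both directions together, stayed within 1.5 times under every alternative run. Counts in 1 direction moved more: for the difference in change, 19 in place of 12 were higher at 6 h with 75th percentile scaling or quantile normalization and 7 in place of 4 at 4 h with the replicate block, and 2 in place of 4 were higher in WT at 6 h with the minimum difference. None of the 293 single calls of members changed direction. The calls lost were 0 with the authors' values, the filter on dim genes or trend and robust estimation, 10 with normexp, 22 with 75th percentile scaling, 27 with quantile normalization, 57 with the minimum difference and 166 of 4688 when arrays were left out. Each replicate number lay on its own slide. Deviations of same-numbered arrays from their group means correlated at r = 0.0752 to 0.535 over 28 pairs of groups, so not every pair passed 0.1 and the number was not taken as a pairing. With the replicate number as a block, 7 members in place of 4 were called for the difference in change at 2 h, the first 4 among them, and no single call was lost. With 2 arrays per group, small differences between the strains could not be resolved.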
